A study of Mus musculus with 12 samples.

Results

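The change in muscle gene expression between day 3 and day 7 after injury was followed in muscles that had received an inhibitor of the microRNA miR-106b. The comparison set 3 libraries of day 7 against 3 libraries of day 3 and covered every gene with a level of at least 1 CPM (the read count scaled to library size) in at least 3 of these 6 libraries. These were 13748 of the 28116 gene symbols of the deposited table, and 6 of its 12 libraries. Of the other symbols, 13743 reached 1 CPM in none of the 6 libraries, 330 in 1 and 295 in 2, while 897 of the genes kept did so in exactly 3. All 12 libraries came from mice that were 4 months old and of the strain C57BL/10ScSn-Dmdmdx/J, whose dystrophin gene carries the mdx mutation, so that muscle undergoes repeated damage and repair from early life. Cardiotoxin (CTX), a snake venom toxin that kills muscle fibres, was injected into the tibialis anterior, a mostly fast muscle of the lower leg, together with either antimiR106b or a scrambled control oligonucleotide, and muscles were taken at day 3 or day 7. Each combination of oligonucleotide and day had 3 libraries from 3 animals. The mdx mutation and the toxin were common to every group, and no uninjured or wild-type muscle was among the 12 libraries. The series' design text once gives the later day as day 5, whereas every sample label says day 3 or day 7. Whether an animal gave muscle to more than 1 group is not given in the sources used here.

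After such an injury, dead fibres are cleared by neutrophils and macrophages while satellite cells, the stem cells of muscle, leave quiescence, divide, switch on the regulators Myod1 and Myog, and fuse into new fibres. Young fibres first make embryonic and neonatal forms of myosin and of the acetylcholine receptor and later replace them with adult forms, while fibroblasts lay down and then remodel a provisional matrix. MicroRNAs hold a short seed that pairs with target messenger RNAs and lowers their output, and an antisense inhibitor blocks that pairing.

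The seed of miR-106b is shared by several microRNAs, so the mature sequences are shown to make plain which of them carry the same seed. Bases 2 to 8 are in capitals, and the sequences are those of RefSeq for GRCm38.p6, written 5′ to 3′.
mmu-miR-106b-5p: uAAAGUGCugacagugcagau
mmu-miR-93-5p: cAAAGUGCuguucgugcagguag
mmu-miR-17-5p: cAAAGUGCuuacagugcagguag
mmu-miR-20a-5p: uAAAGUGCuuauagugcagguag
mmu-miR-20b-5p: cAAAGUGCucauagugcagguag
mmu-miR-106a-5p: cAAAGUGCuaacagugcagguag
mmu-miR-6383: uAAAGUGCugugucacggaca
These 7 mature microRNAs had the same seed. The miR-106b sequence lies at chr5:138165787-138165807 on the minus strand, within the span of Mcm7 (chr5:138164583-138172422, minus strand), a gene for a subunit of the DNA helicase that opens replication origins. The sequence of the injected inhibitor was not used here, and mature microRNAs are not among the measured genes.

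The 6 libraries held 28857739 to 37415894 counted reads, and 1 CPM stood for 28.1 to 46.9 reads. Muscle genes dominated every library: Acta1, the actin of the sarcomere, ranged from 14.05 to 15.28 log2 CPM, and Ckm, the creatine kinase of muscle, from 12.08 to 14.02. Keratin genes of skin were low, with Krt5 between -7.16 and -4.07 and Krt10 between 0.79 and 2.02. Mitochondrially encoded transcripts took 4.81% ± 0.0186 (SD, n = 3) of the reads at day 3 and 10.2% ± 0.391 at day 7, and the 10 most abundant genes took 12.0% ± 0.181 and 22.2% ± 0.287. The authors' scaling factors moved with this, at 1.28 ± 0.03 on day 3 and 0.828 ± 0.022 on day 7. Pearson correlations of log2 CPM across genes were 0.9899 to 0.9962 between libraries of 1 day and 0.8487 to 0.8819 between days.

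Of the 13748 genes, 10886 (79.2%) changed between the days at an adjusted p below 0.05 in limma, which fitted all 12 libraries together and adjusted p by the Benjamini-Hochberg method. Higher at day 7 were 5224 genes (38%), and 5662 (41.2%) were lower. A change of at least 2-fold was reached by 4573 genes (33.3%), of which 1719 were higher and 2854 lower. The larger falls went further than the larger rises: 430 genes were at least 8-fold lower and 4 at least 8-fold higher (Gm3793, Slc15a5, 5430401H09Rik and Calm4, all low at day 3 and named after their values were seen), and 27 were at least 32-fold lower against 0 higher. The 3 libraries of the 2 days did not overlap for 11225 genes (81.6%). The split between higher and lower depended on how libraries were scaled: 48.0% of passing genes were higher as deposited, 18.5% (2145 of 11588) when scaled to total reads, and 57.3% (6317 of 11034) after quantile normalization. The median change over all tested genes was -0.03 as deposited, -0.65 by total reads and 0.14 by quantiles, all on the log2 scale. Of the tested genes, 853 reached 1 CPM on 1 day only, and had to differ to be tested. In the lists below this held for 1 member each of the fatty acid oxidation, mitosis, dendritic cell, angiogenic and growth factor lists, and in other lists only where stated. Since so many genes passed, the counts given for each gene list are to be read against these shares. In bulk muscle, fewer cells of a type and less RNA per cell cannot be told apart. In what follows, changes are log2 fold changes of day 7 minus day 3 with their standard error (SE), levels are log2 CPM with their SD over n = 3 libraries, and members singled out within a list as exceptions were chosen after their values were seen. The plot of list members shows the change of each gene in a selection of the lists.

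**Figure D1:**
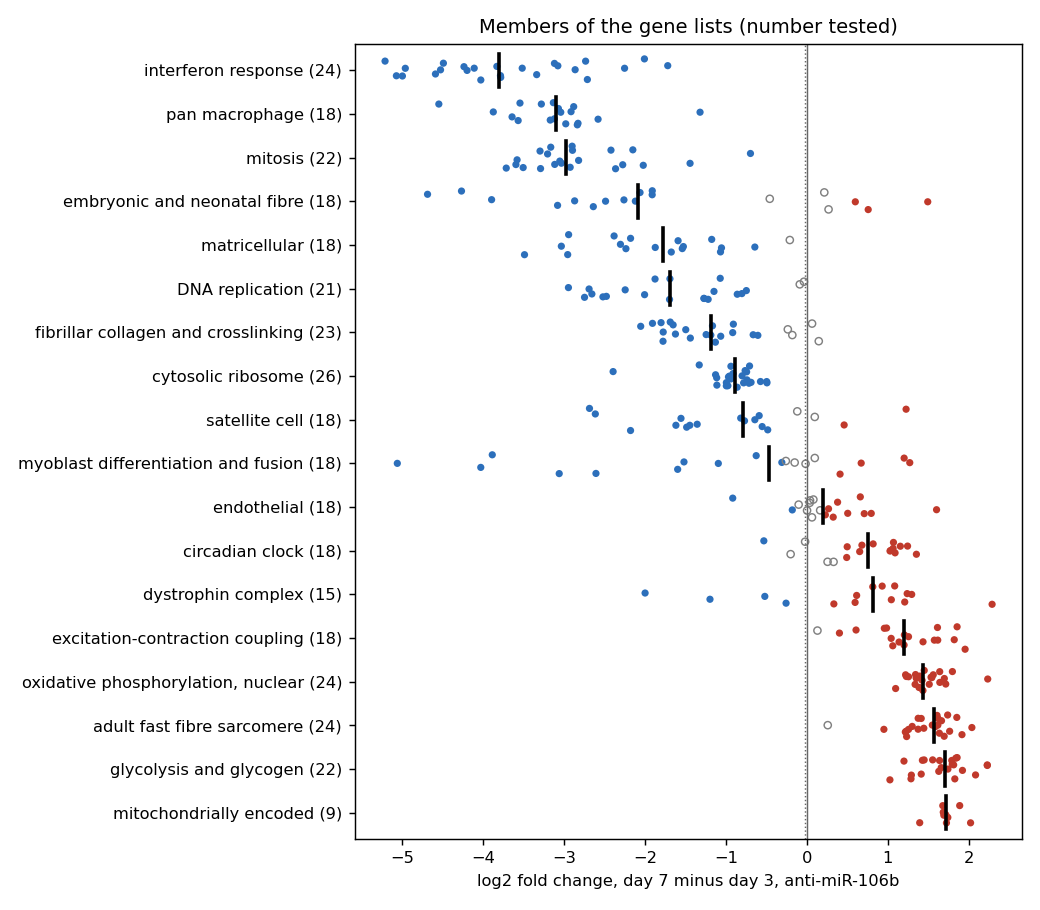
Log2 fold change from day 3 to day 7 with anti-miR-106b (horizontal axis) for each tested member of selected gene lists (vertical axis, number tested in brackets). Red and blue points passed the test as higher and lower, open points did not, thick bars are list medians, and the dotted line is the median of all tested genes at -0.03; the medians run from -3.81 for the interferon response to 1.72 for mitochondrially encoded genes.

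The myogenic regulators and the fusion genes fell between the days. Myog, which drives myoblasts into terminal differentiation, was at 8.48, 8.60 and 8.48 log2 CPM in the day 3 libraries and at 4.86, 4.01 and 5.02 in the day 7 libraries, a change of -3.89. Mymx (chr17:45600971-45602102), the small membrane protein needed to fuse myoblasts, went from 6.03, 6.24 and 6.01 to 1.41, 0.06 and 1.63. Its change of -5.06 ± 0.30, 33.4-fold lower, led the 12 genes named for the size of their fall at a mean of at least 3 log2 CPM. The libraries of the 2 days were far apart for both genes, and day 7 replicate 2 was the lowest for each. Cdkn1a, the p21 inhibitor that takes differentiating myoblasts out of the cell cycle, fell by 3.06 (8.61, 8.49 and 8.46 against 5.77, 5.16 and 5.45). Myod1, the regulator that commits cells to the muscle lineage, fell by 1.60. Of the 18 tested genes of the differentiation and fusion list (19 listed), 10 were lower, 4 higher and 4 did not pass, with a median of -0.47. The 4 that rose were Mef2c at 1.20, Tmem182 at 1.27, Myf6 at 0.67 (0.046 and not passing by total reads) and Jam2 at 0.41 (-0.22 by total reads); Myf6 and Mef2c encode transcription factors that are also used in mature fibres.

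Most satellite cell genes fell too. Pax7, the transcription factor that defines these cells, stood at 3.02, 3.09 and 3.13 log2 CPM on day 3 and 2.31, 2.41 and 2.08 on day 7, a change of -0.82 with no overlap. Of 18 tested satellite cell genes (20 listed), 14 were lower, 2 higher and 2 did not pass, with a median of -0.79. The syndecan Sdc3 fell by 2.69, the receptor Megf10 by 2.61, the growth factor receptor Fgfr4 by 2.18 and the cadherin Cdh15 by 1.62. Myf5, a regulator of activated satellite cells, changed by -0.64 with an adjusted p of 0.0177 in limma, a call that was lost without day 7 replicate 2 (-0.47) and by quantiles (-0.13).

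Embryonic and neonatal fibre genes fell, with Myh3 and Chrng at the front. Myh3 (chr11:67078300-67102291), the embryonic myosin heavy chain, went from 10.58, 10.65 and 10.51 to 6.85, 5.47 and 6.62 log2 CPM, 19.3-fold lower (-4.27 ± 0.28). Chrng, the fetal subunit of the acetylcholine receptor, went from 7.38, 7.38 and 7.21 to 3.27, 1.62 and 3.02, 25.8-fold lower. Neither gene had overlapping libraries, and day 7 replicate 2 was again the lowest. Tnnt2, the cardiac and embryonic troponin T, fell by 3.90, and Lrrc17, a secreted leucine-rich repeat protein, by 2.87. All 18 listed genes were tested: 12 were lower, 3 higher and 3 did not pass, with a median of -2.09. The 3 that rose were the actin-binding Xirp2 (1.49), the small heat shock protein Cryab (0.76) and Xirp1 (0.60). Cryab no longer passed by total reads (0.13) or by quantiles (0.24). Xirp1 no longer passed by quantiles (0.26), without day 3 replicate 3 (0.54) or without day 7 replicate 1 (0.33), and was at -0.027 by total reads. The plot of genes by library shows 4 of the falling genes beside genes that rose.

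**Figure D2:**
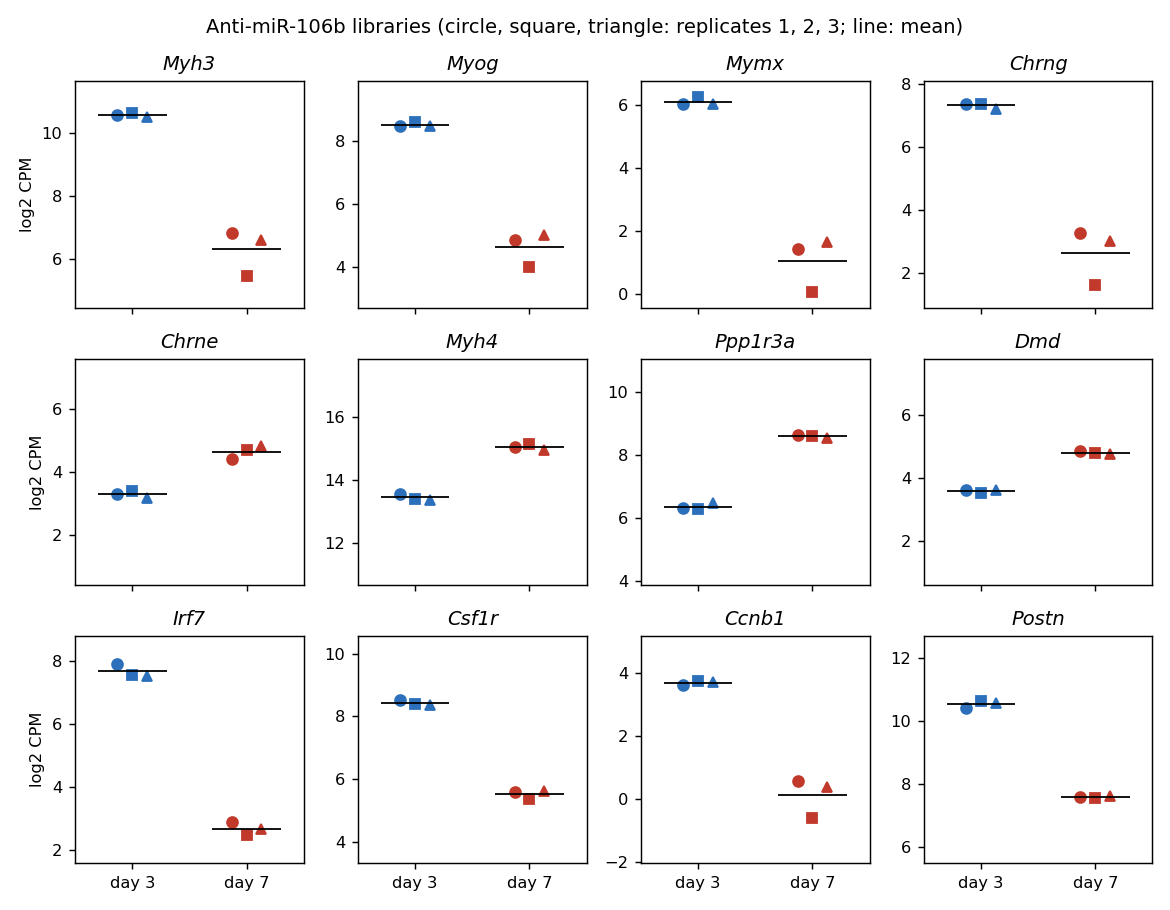
Log2 CPM (vertical axis, the same span in every panel) of 12 genes in the 3 day 3 (blue) and 3 day 7 (red) anti-miR-106b libraries, with the mean as a line. Myh3, Myog, Mymx, Chrng, Irf7, Csf1r, Ccnb1 and Postn lie lower at day 7 and Chrne, Myh4, Ppp1r3a and Dmd higher, with no overlap between days in any panel.

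Transcripts of the fetal and adult receptor subunits moved in opposite directions. While Chrng fell, Chrne, the adult subunit that replaces it, rose from 3.32, 3.41 and 3.18 to 4.42, 4.70 and 4.83 log2 CPM (1.35). Bulk RNA does not show where in the fibre these transcripts lay. Chrna1 and Chrnd, the subunits common to both forms, fell by 2.64 and 3.08. The kinase Musk, which clusters receptors, fell by 1.49. Over the 14 neuromuscular junction genes, 4 were higher, 5 lower and 5 did not pass, and the median was near 0 at -0.00. By total reads 2 were higher and 11 lower, with a median of -0.63.

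Promoters of 2 embryonic fibre genes are shown because they hold the E-box core CAGCTG, a motif bound by Myod1 and Myog. Each is the 150 bases before the start site in RefSeq, GRCm38.p6, 5′ to 3′ on the gene's strand, with matches in capitals.
Lrrc17 (chr5:21543377-21543526, plus strand): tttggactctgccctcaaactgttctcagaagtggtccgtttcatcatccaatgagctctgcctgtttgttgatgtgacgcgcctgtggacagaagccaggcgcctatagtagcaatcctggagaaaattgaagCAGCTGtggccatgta
Chrna1 (chr2:73580339-73580488, minus strand): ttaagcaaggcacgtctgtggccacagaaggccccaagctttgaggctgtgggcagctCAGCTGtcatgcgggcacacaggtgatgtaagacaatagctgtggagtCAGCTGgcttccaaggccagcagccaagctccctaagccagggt
Within windows of 300 bases (250 before to 50 after the start site), 5 of the 14 list members with a promoter entry held CAGCTG, against 18.3% of all 27025 symbols. CAGCTG reads the same on both strands. In the 150 bases before the start, 4 of 14 held it, against 9.65%. A match is a description of the letters only. The motifs here and below were kept after the shares of a larger set of motifs had been seen.

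Adult myosins were compared per length of exon, as shares of 6 heavy chain genes. The length was that of all annotated exons merged: 6016 bases for Myh4, 6057 for Myh3, 8616 for Myh7 and 11772 for Myh8. A longer merged length lowers a gene's share, so shares compare better between days than between genes. Myh3 made up 7.27% ± 0.286 (SD, n = 3) of the 6 genes together at day 3 and 0.165% ± 0.0752 at day 7. Myh8, the neonatal form, went from 1.24% ± 0.0166 to 0.117% ± 0.0279. Myh4, the fastest adult form, went from 53.8% ± 2.06 to 65.0% ± 3.63, and Myh1, the next fastest, from 35.4% ± 1.35 to 33.6% ± 3.46, a difference within the spread. With the scrambled control, the Myh3 share was 2.99% ± 0.616 at day 3 and 0.0890% ± 0.0288 at day 7. As single genes, Myh4 rose by 1.59 (13.57, 13.42 and 13.39 against 15.05, 15.14 and 14.95 log2 CPM) and Myh1 by 1.23 as deposited. After quantile normalization Myh4 was at 0.072 and no longer passed, and Myh1 passed as lower at -0.33. Myh2 was at 0.26 ± 0.34 with an adjusted p of 0.498 in limma, and its sign was negative by total reads and by quantiles. Myh7, the slow form, was at 3.70, 3.21 and 2.94 log2 CPM on day 3 and at 4.16, 0.10 and 0.10 on day 7, so that its days overlapped through day 7 replicate 1 (-1.83 ± 0.81, adjusted p = 0.051 in limma). Without that library Myh7 was at -3.18 and passed (adjusted p = 9.1e-06), and it also passed by total reads (-2.46), with library weights (-2.02), with voom weights (-1.80) and with the replicate block (-1.83).

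**Figure D3:**
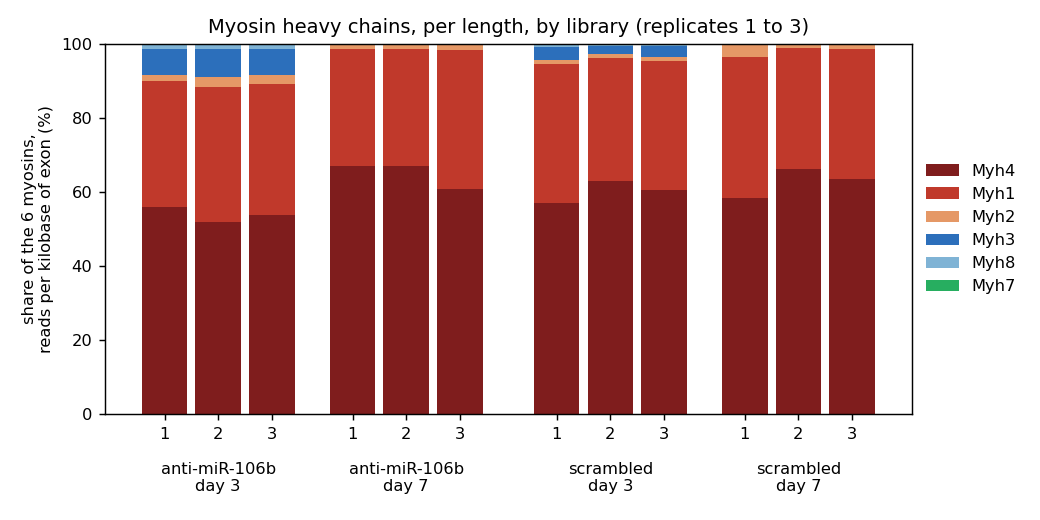
Share of each of 6 myosin heavy chain genes in their reads per kilobase of exon (vertical axis, percent) for each of the 12 libraries (bars, replicates 1 to 3 of each group). Embryonic Myh3 is a visible band of 7.27% on average in the anti-miR-106b day 3 bars and 2.99% in the scrambled day 3 bars, and at day 7 it is too thin to see; so is Myh7 in every bar.

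Genes of the mature fibre rose nearly as a whole. Of the 24 adult fast sarcomere genes, 23 were higher, 0 lower, and Myh2 did not pass, with a median of 1.57. Their summed level was 97022, 95212 and 90081 CPM in the day 3 libraries and 239700, 253187 and 268285 CPM in the day 7 libraries, with no overlap. Myoz1, a Z-disc protein of fast fibres, rose by 1.92, and Pvalb, a calcium buffer of fast fibres, by 2.04. After quantile normalization the list's count was 15 higher and 4 lower and its median 0.51. Of the 18 excitation-contraction coupling genes, 17 were higher and Bin1, at 0.13, did not pass, with a median of 1.20. Bin1 passed as lower by total reads (-0.49) and by quantiles (-0.39). Trdn, which anchors the calcium release machinery, rose by 1.96, the chloride channel Clcn1 by 1.86 and the calcium pump Atp2a1 by 1.82, the last at 0.12 and not passing after quantile normalization. The slow fibre list ran the other way, with 9 of 13 tested genes (14 listed) lower, 3 not passing, a median of -1.76, and Myl3, a slow and cardiac myosin light chain, higher at 2.07.

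In the dystrophin complex, which links the fibre's cytoskeleton to the matrix, 11 of 15 genes were higher and 4 lower, with a median of 0.81. Dmd transcripts (chrX:82948870-85206141) rose from 3.62, 3.54 and 3.61 to 4.85, 4.79 and 4.77 log2 CPM, 2.31-fold, although the mdx mutation blocks the full-length protein. Utrn, the related protein that can stand in for dystrophin, fell by 0.52 (5.25, 5.17 and 5.21 against 4.88, 4.61 and 4.58). Nos1, the nitric oxide synthase held at the complex, rose by 2.29. Apart from Utrn, the members that fell were Sntb1 (from 5.03 to 3.03 log2 CPM), Dtnb (-1.20) and Sntb2 (-0.26). The Sntb2 call was lost without day 3 replicate 1 (-0.25), without day 7 replicate 2 (-0.19) and by quantiles (-0.071). By total reads the median of the complex was 0.19, with 8 higher and 5 lower.

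Energy metabolism rose with the contractile genes. All 22 glycolysis and glycogen genes were higher, with a median of 1.70 and changes from 1.03 for Gpi1 to 2.23 for Phka1 and Ppp1r3a. Ppp1r3a (chr6:14713977-14755274), the muscle subunit that brings protein phosphatase 1 to glycogen, went from 6.34, 6.31 and 6.48 to 8.64, 8.63 and 8.56 log2 CPM, 4.69-fold higher with little spread (2.23 ± 0.08). Phka1, a regulatory subunit of phosphorylase kinase, went from 7.49, 7.30 and 7.40 to 9.72, 9.69 and 9.47. All 24 nuclear genes of oxidative phosphorylation were higher, with a median of 1.43, as were all 9 tested mitochondrially encoded genes (15 listed), with a median of 1.72. After quantile normalization 5 of these 9 were higher, with a median of 0.45, and the glycolysis list had 19 of 22 higher, with a median of 1.04. Of 19 genes of fatty acid oxidation, 18 were higher and Lpl, at -0.08, did not pass, though it was lower by total reads (-0.70) and by quantiles (-0.43). Ppargc1a, the coactivator of mitochondrial genes, rose by 1.94. In the creatine and purine list, 7 of 11 were higher, 2 lower and 2 did not pass. The 2 that fell were Ckb (-2.66), the creatine kinase of non-muscle cells and myoblasts, and Gatm (-2.86), which makes the precursor of creatine. Ckmt2, the mitochondrial creatine kinase of muscle, rose by 2.33. The mitochondrial share of reads moved with all of these groups, and its part in them was not tested.

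The single genes named for the size of their rise had varied roles. Mylk4, a kinase of the myosin light chain kinase family, rose by 2.60 ± 0.15, Perm1, a regulator of muscle mitochondria, by 2.57, Mtfp1, a protein of mitochondrial fission, by 2.44, and Aqp4, the water channel of fast fibres, by 2.41. Ntf5, a neurotrophin, rose by 2.42 and Smox, a spermine oxidase, by 2.31. Ibsp, a bone and mineral matrix protein, headed the list at 2.65 ± 0.36, or 6.30-fold. Its libraries were at 2.72, 1.94 and 2.41 on day 3 and 4.76, 5.66 and 4.62 on day 7. With the scrambled control its mean was 4.75 on day 3 and 4.53 on day 7. Others of the list were Ptpn3 (2.58), Slc22a4 (2.47 ± 0.37), Fam57b (2.39) and G0s2 (2.32 ± 0.41). The libraries of Slc22a4 spread widely at day 3, at 3.72, 1.74 and 2.82, and those of G0s2 at day 7, at 4.95, 6.33 and 6.98, though neither overlapped between days.

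The interferon response fell as a whole. All 24 genes were lower, with a median of -3.81 as deposited and -2.46 with 5 CPM added, and their summed level went from 1479, 1367 and 1347 CPM at day 3 to 135, 109 and 126 CPM at day 7. Irf7 (chr7:141262706-141266481), the transcription factor that amplifies interferon production, went from 7.92, 7.58 and 7.55 to 2.89, 2.47 and 2.68 log2 CPM, among the 12 largest falls. Isg15, a ubiquitin-like modifier, went from 5.87, 5.95 and 5.73 to 1.65, 0.92 and 1.50, 22.5-fold lower. The antiviral RNA-binding protein Ifit3 fell by 4.24, and Zbp1, a sensor of nucleic acids, by 4.96. Every one of these genes had its day 7 libraries well below day 3. Outside the list, the interferon-inducible Ifi209 fell by 4.77, Uba7, the enzyme that activates Isg15, by 2.83, and the nuclear body protein Sp100 by 2.57.

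The promoters of Ifit3 and Isg15 are shown because both hold more than 1 core of the interferon-stimulated response element, GAAANNGAA, which interferon-activated factors bind. They are the 150 bases before the start site (RefSeq, GRCm38.p6, 5′ to 3′ on the gene's strand), and matches on either strand are in capitals, so that adjoining matches run together.
Ifit3 (chr19:34583379-34583528, plus strand): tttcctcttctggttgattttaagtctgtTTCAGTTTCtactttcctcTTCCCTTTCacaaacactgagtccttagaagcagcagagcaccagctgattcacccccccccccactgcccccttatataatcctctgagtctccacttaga
Isg15 (chr4:156200819-156200968, minus strand): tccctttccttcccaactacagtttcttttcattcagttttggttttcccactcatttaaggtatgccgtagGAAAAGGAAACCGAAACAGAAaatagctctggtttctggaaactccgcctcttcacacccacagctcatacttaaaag
The core occurred 2 times in the Ifit3 stretch and 3 times in that of Isg15. In the 300-base windows it was present in 12 of the 18 list members with an entry, against 9.76% of all symbols, and in the 150 bases before the start in 8 of 18, against 4.61%.

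Macrophage genes fell with the interferon genes. All 18 genes common to macrophages were lower, with a median of -3.10, and their summed level fell from 5017, 5278 and 4786 CPM to 711, 413 and 685 CPM. Each of the 18 still had at least 0.89 log2 CPM in every day 7 library. Csf1r, the receptor for the growth factor that maintains macrophages, went from 8.52, 8.40 and 8.36 to 5.60, 5.38 and 5.65 log2 CPM. Fcgr1, a receptor for antibody-coated particles, went from 6.50, 6.46 and 6.42 to 2.53, 0.89 and 2.31, 23.4-fold lower. Siglec1 and Ms4a6b, both found on macrophages and monocytes, fell by 4.34 and 4.29. Macrophages also express interferon-response genes, and the part of the macrophage fall in the interferon fall was not tested.

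Genes of early, inflammatory macrophages and those of later, repair macrophages both fell. Of 15 tested monocyte genes (22 listed), 14 were lower and Nos2 (0.56, but -0.066 by total reads) higher, with a median of -2.93. Among the 15 tested, 3 reached 1 CPM on 1 day only. Ly6c2, the marker of inflammatory monocytes, went from 4.79, 4.06 and 4.30 to 0.01, -0.79 and -2.84 log2 CPM. Arg1, an arginine-degrading enzyme of wound macrophages, went from 3.37, 2.92 and 2.98 to -2.88, -3.14 and -2.27, a change of -5.85 ± 0.47. Of 20 tested repair and resident macrophage genes (22 listed), 18 were lower, with a median of -2.09. Retnla (1.07, not passing by total reads at 0.44) was higher. Lyve1 (-0.47) did not pass as deposited and was at 0.038 by quantiles. It passed as lower by total reads (-1.09), with 1 or 5 CPM added, with library weights (-0.54) and with the replicate block. Lyve1 also passed in the 6 anti-miR-106b libraries alone, and with some single libraries left out, such as day 3 replicate 2 (-0.59) or day 7 replicate 1 (-0.65). Within that list the complement subunit C1qa fell by 3.03, the mannose receptor Mrc1 by 1.60 and the growth factor Igf1 by 1.24. Spp1, the secreted protein osteopontin, fell by 2.96 (8.88, 9.24 and 9.17 against 6.76, 5.85 and 5.81).

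Other leukocyte lists were thin. Of 6 tested neutrophil genes (15 listed), 5 were lower and Mmp9 (-0.60) did not pass. Among the 6 tested, 4 reached 1 CPM on 1 day only. Mmp9 did pass as lower without day 7 replicate 2 (-1.03), without day 3 replicate 1 (-0.86), by total reads (-1.23) and with the replicate block (adjusted p = 0.0199 in limma). All 8 tested T and NK cell genes (20 listed) were lower, and 5 of the 8 reached 1 CPM on 1 day only. Genes with 1 CPM on 1 day only entered the test through that day, so counts over them cannot weigh as evidence of direction. Of 15 dendritic cell and MHC class II genes, 13 were lower and 2 did not pass, with a median of -1.38. The 6 tested mast cell and eosinophil genes (14 listed) all missed the threshold, with a median of -0.11. In the lysosome and lipid list, 18 of 22 were lower, 1 higher and 3 did not pass: the lipase Lipa fell by 2.55 and the cholesterol transporter Npc2 by 2.29.

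Genes of cell division fell as a block. All 22 mitosis genes were lower, with a median of -2.98 as deposited and -1.48 with 5 CPM added, and their summed level went from 372, 423 and 399 CPM to 76.3, 48.2 and 72.7 CPM. Ccnb1, the cyclin that drives entry into mitosis, went from 3.60, 3.74 and 3.71 to 0.55, -0.63 and 0.38 log2 CPM. Cdk1, its kinase partner, fell by 2.90 and Ube2c, which marks cyclins for destruction, by 1.44. Of 21 tested DNA replication genes (22 listed), 19 were lower, and Rfc4 (-0.04) and Rrm1 (-0.09) did not pass, with a median of -1.69. By total reads Rrm1 (-0.71) and Rfc4 (-0.66) passed as lower, while Rfc4 passed as higher by quantiles (0.40). Mcm5, a helicase subunit, went from 4.46, 4.60 and 4.51 to 1.90, 1.05 and 1.78. Mcm7, the gene whose span holds miR-106b, went from 4.92, 5.07 and 4.79 to 3.73, 3.68 and 3.71, a change of -1.22 ± 0.09 or 2.33-fold, without overlap. Of 22 cell cycle brakes and p53 targets, 16 were also lower, 5 higher and 1 did not pass, with Cdkn1a the largest fall at -3.06.

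Promoters of Cdk1, Ube2c and Mcm5 are shown because cell cycle genes are known to hold short shared motifs. Capitals mark, on either strand, TTTGAA (the CHR, a site of the complex that times mitotic genes) and CCAAT in Cdk1 and Ube2c, and in Mcm5 any of the E2F sites TTTCCCGC, TTTGGCGC and TTTCGCGC. Each is the 150 bases before the start site in RefSeq, GRCm38.p6, 5′ to 3′ on the gene's strand.
Cdk1 (chr10:69352913-69353062, minus strand): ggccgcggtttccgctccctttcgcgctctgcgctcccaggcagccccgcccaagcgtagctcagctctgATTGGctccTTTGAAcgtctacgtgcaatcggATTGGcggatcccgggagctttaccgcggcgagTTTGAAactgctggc
Ube2c (chr2:164769779-164769928, plus strand): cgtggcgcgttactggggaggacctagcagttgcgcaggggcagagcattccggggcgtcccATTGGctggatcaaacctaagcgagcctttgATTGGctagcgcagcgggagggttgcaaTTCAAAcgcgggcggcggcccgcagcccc
Mcm5 (chr8:75109359-75109508, plus strand): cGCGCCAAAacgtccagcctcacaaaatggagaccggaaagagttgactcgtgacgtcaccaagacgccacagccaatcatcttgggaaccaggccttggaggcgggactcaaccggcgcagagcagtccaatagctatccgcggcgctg
In 300-base windows, TTTGAA was in 13 of the 18 mitosis genes with an entry, against 20.2% of all symbols, and CCAAT in 15 of 18, against 41.1%. An E2F site was in 7 of the 17 DNA replication genes with an entry, against 2.12%. In the 150 bases before the start these were 7 of 18 against 10.5%, 15 of 18 against 27.7% and 4 of 17 against 1.19%. Mcm7 had 2 windows, of which 1, at chr5:138171834-138172133, held an E2F site.

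Matrix genes fell, though they stayed abundant. Of 23 fibrillar collagen and crosslinking genes, 19 were lower, 0 higher and 4 did not pass, with a median of -1.19, and their summed level was 15064 CPM ± 946 at day 3 and 5379 ± 210 at day 7. Col1a1, the main chain of type I collagen, went from 11.61, 11.80 and 11.54 to 9.73, 9.72 and 9.78 log2 CPM, and Col3a1 fell by 1.50. Postn (chr3:54361109-54391037), a matricellular protein of activated fibroblasts, went from 10.41, 10.61 and 10.55 to 7.59, 7.56 and 7.59, 7.70-fold lower. Its SE of 0.08 was small, which placed Postn among the 8 falling genes with the smallest p. Of the 18 matricellular genes, 17 were lower and Ccn1 (-0.21) did not pass, with a median of -1.78: Cthrc1 fell by 3.49, Lrrc15, a membrane protein of activated fibroblasts, by 3.03 and Tgfbi by 2.18. Of 16 elastic fibre genes, 14 were lower, Ltbp4 (0.61, but -0.011 by total reads) was higher and Ltbp3 (-0.11) did not pass. Ltbp3 passed as lower by total reads (-0.73) and by quantiles (-0.32). Ltbp2, which binds fibrillin, fell by 3.68 and Emilin1 by 2.08. Fibro-adipogenic progenitor genes, the markers of the resident fibroblast-like cells, were mixed as deposited. Of 20, 12 were lower, 4 higher and 4 did not pass, with a median of -0.40. By total reads 0 were higher and 17 lower, with a median of -1.03, and by quantiles 1 was higher and 11 lower.

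Vessel, fat and nerve genes did not share a direction. Of 18 endothelial genes, 9 were higher, Eng (-0.92) and Aplnr (-0.18) lower, and 7 did not pass, with a median of 0.20 as deposited, -0.43 by total reads and 0.42 by quantiles. Vegfa, the main growth signal for vessels, rose from 5.72, 5.64 and 5.73 to 7.79, 7.74 and 7.79 log2 CPM, while Pgf, a related ligand, fell by 2.17. Over the 19 angiogenic ligand and hypoxia genes, 7 were higher, 9 lower and 3 did not pass. By total reads 5 of them were higher and 14 lower. Of 13 tested fat cell genes (15 listed), 12 were higher and Pparg (-0.92) lower, with a median of 0.87. By total reads that list was at 0.25, with 5 higher and 2 lower. Adipoq, a hormone of fat cells, rose by 0.87 (adjusted p = 0.00498 in limma, not passing by total reads at 0.25), and Plin4, a lipid droplet protein found in muscle fibres too, by 2.31. Of 12 tested Schwann cell and myelin genes (15 listed), 8 were lower and 4 did not pass, with a median of -0.77. Among the 12 tested, 1 reached 1 CPM on 1 day only.

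The circadian clock list was one of the smaller groups with a clear direction: 13 of 18 genes were higher, Per1 lower (-0.53, a call lost without day 3 replicate 2 or day 7 replicate 2) and 4 did not pass, with a median of 0.75. Nr1d2, a repressor in the clock loop, went from 5.73, 5.67 and 5.81 to 7.13, 7.18 and 6.96 log2 CPM. The receptor Rora rose by 1.24 and the output factor Tef by 1.09. By total reads the count was 8 higher and 4 lower with a median of 0.13, and by quantiles 16 higher and 0 lower. The hour at which muscles were taken is not given in the sources used here.

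Genes for making protein fell while those of the proteasome, which degrades it, moved by less. All 26 ribosomal protein genes were lower, with a median of -0.89. Rpl3, the ribosomal protein that muscle fibres partly replace with a paralog, went from 9.29, 9.27 and 9.31 to 7.06, 6.61 and 7.02 log2 CPM, a larger fall than any other member. Ribosomal protein genes have many processed copies in the genome, so their read counts are less certain. Of 20 proteasome genes, 12 were higher, Psma5 (-0.23) lower and 7 did not pass, with a median of 0.21 that turned to -0.42 by total reads and -0.10 by quantiles. Of 19 genes of the unfolded protein response, 12 were lower, 5 higher and 2 did not pass. The growth factor and imprinted genes, many of them active in fetal muscle, had 15 of 19 lower, 0 higher and 4 not passing, with a median of -1.33. Igfbp2 fell by 3.41, Peg10 by 2.54 and the noncoding RNA Meg3 by 1.75.

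Genes reported as targets of miR-106b, gathered from general knowledge of this seed family, had no shared direction. Of 32, 10 were higher, 14 lower and 8 did not pass, and the median was -0.10, beside -0.03 for all tested genes. By total reads 5 were higher and 23 lower, with a median of -0.73, beside -0.65 for all tested genes. Cdkn1a (-3.06), the activator of replication genes E2f1 (-2.18) and the mitotic motor Kif23 (-2.64) fell. Vldlr, a lipoprotein receptor, rose by 2.11, Mfn2, which fuses mitochondria, by 1.63 and Bmpr2, a receptor for bone morphogenetic proteins, by 1.10. With the scrambled control, the list's median was -0.11.

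Whether the course differed from that with the scrambled control was tested as the difference between the 2 changes, in the same limma model. It passed for 3149 genes (22.9%): the change was more positive with anti-miR-106b for 1857 (13.5%) and more negative for 1292 (9.4%). Of these, 2935 moved in the same direction in both arms and further with anti-miR-106b, 38 moved less far with it, and 176 had opposite signs. The arms already differed at day 3. The mitochondrial share of reads was 4.81% ± 0.0186 (SD, n = 3) with anti-miR-106b and 7.64% ± 0.109 with the scrambled control. At day 7 it was 10.2% ± 0.391 and 9.59% ± 1.25. Scaling factors were 1.28 and 1.12 at day 3 and 0.828 and 0.845 at day 7. A larger change can hold a different level at day 3, at day 7 or both, which these counts do not separate. The test rests on 4 groups of libraries with none in common between the 2 changes. Without scrambled day 3 replicate 2 it gave 2088 genes, and without scrambled day 7 replicate 1 it gave 4574. With library weights it gave 5359, and by total reads 4385, of which 876 were more positive and 3509 more negative.

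Among the 8 genes with the smallest p on the more positive side, Ppp1r3a rose by 2.23 against 0.96 with the scrambled control, a difference of 1.26 ± 0.11 (SE). Its level at day 3 was 6.38 with anti-miR-106b and 7.41 with the scrambled control, and at day 7 it was 8.61 and 8.38. Carnmt1, a carnosine methyltransferase, was likewise further apart between the arms at day 3 than at day 7, with levels that were 3.64 and 4.52 at day 3 and 5.38 and 5.33 at day 7 (difference 0.92 ± 0.09). Cacna2d1, a calcium channel subunit, differed by 0.80, Ano5, a membrane repair protein, by 0.81, the phospholipase Pla2g4e by 1.10, the linker histone Hist1h1c by 1.04, Sec14l5 by 0.85 and Tpbgl by 1.01. All 22 glycolysis and glycogen genes and 23 of the 24 oxidative phosphorylation genes had a more positive change, beside 13.5% of all tested genes. So did 17 of the 24 sarcomere genes, and none of these lists had a member that was more negative. Counts of list members by the difference between the arms, here and below, are as deposited and were not repeated under other scalings. The list medians in the scrambled arm were 0.87, 0.90 and 0.85.

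On the more negative side, Uba7 fell by 2.83 with anti-miR-106b and by 1.76 with the scrambled control, a difference of -1.07 ± 0.12. The RNA helicase Mov10 fell by 3.19 and by 1.89, a difference of -1.29 ± 0.16. For 19 of the 24 interferon genes the fall was larger with anti-miR-106b, and the scrambled median was -2.74. Over all tested genes, 9.4% had a more negative change with anti-miR-106b. The summed interferon level was 714 to 795 CPM in the scrambled day 3 libraries, under each anti-miR-106b day 3 library, and 113 to 166 CPM at day 7, which overlapped the anti-miR-106b range. Fmnl3, a formin that shapes the actin of vessel cells, differed by -0.88 and Rps10 by -1.47, the latter uncertain because of near-identical copies. Among ribosomal protein genes 22 of 26 had a more negative change with anti-miR-106b, and among elastic fibre genes 10 of 16.

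Trp53i11 fell by 1.23 with anti-miR-106b and was at -0.09 with the scrambled control, a difference of -1.13 ± 0.13. Aplnr (chr2:85136225-85139923), the receptor for apelin on vessel cells, went from 4.91, 4.81 and 4.77 to 4.65, 4.63 and 4.67 with anti-miR-106b (-0.18) and rose by 0.72 with the scrambled control, a difference of -0.90. Its change with anti-miR-106b no longer passed without day 3 replicate 1 (-0.14), without day 7 replicate 2 (-0.17), by quantiles (-0.10) or with the replicate block (-0.18), while its difference between the arms passed in each of these. The protocadherin Pcdh1 also had opposite directions, at -0.34 and 0.75, although its change with anti-miR-106b was 0.067 after quantile normalization. Of 18 endothelial genes, 12 had a more negative change with anti-miR-106b, beside 9.4% of all tested genes. Rgcc, a cell cycle regulator of vessel cells, had a more positive one. The median change of the list was 0.20 against 0.71 with the scrambled control. In all, 28 genes passed in both arms with opposite directions. Examples chosen after their values were seen are Apln, the ligand of Aplnr, at -0.89 and 0.88, the vessel constrictor Edn1 at -1.04 and 0.68, and the clock output genes Dbp at 0.82 and -0.54 and Ciart at 0.68 and -0.89. By total reads the rises of Dbp (0.19) and Ciart (0.057), and by quantiles the fall of Edn1 (-0.36), no longer passed. For 10 of the 18 clock genes the change was more positive with anti-miR-106b, beside 13.5% of all tested genes, and for 0 more negative.

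**Figure D4:**
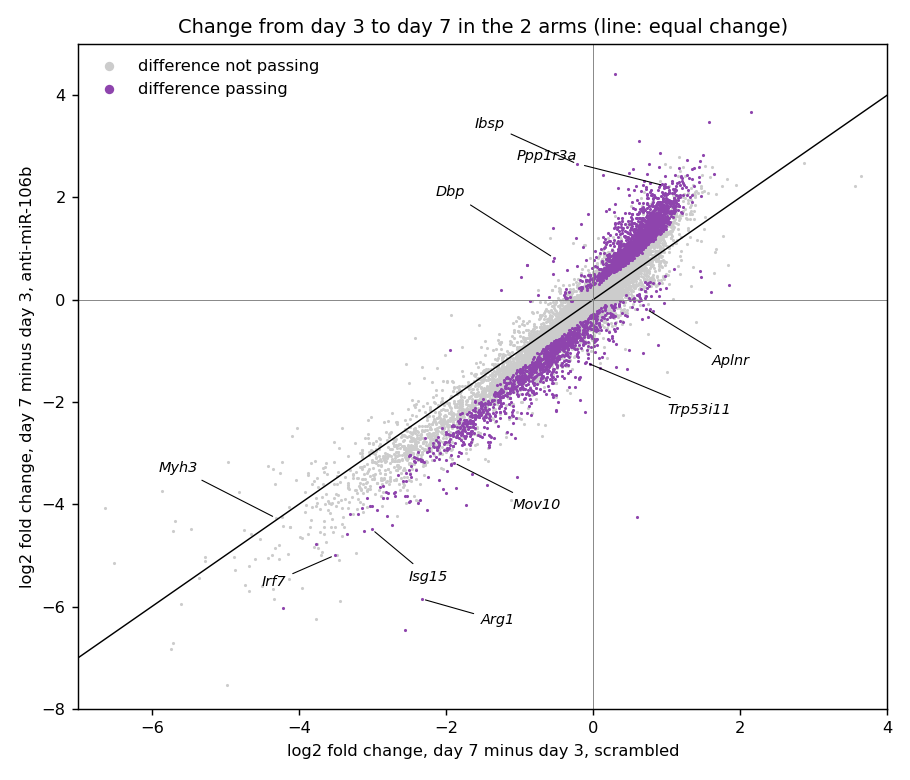
Log2 fold change of day 7 minus day 3 with anti-miR-106b (vertical axis) against that with the scrambled control (horizontal axis) for the 13748 tested genes; the diagonal marks equal change. The 3149 genes whose difference passed (purple) lie mostly above the diagonal on the right and below it on the left, and Aplnr and Dbp lie in the quadrants of opposite sign.

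Arg1, a member of the monocyte list, changed by -5.85 with anti-miR-106b and by -2.33 with the scrambled control. The difference was -3.52 ± 0.67 (adjusted p = 0.0034 in limma), but with anti-miR-106b Arg1 reached 1 CPM on day 3 only. It entered the test through that day and its day 7 level rests on few reads, so this gap cannot weigh as evidence of a difference. The change was more negative with anti-miR-106b for 2 of the 18 genes common to macrophages and for 1 of the 22 mitosis genes. Over all tested genes this share was 9.4%. The list medians were -3.10 against -2.79 and -2.98 against -2.46. The plot of summed levels shows the lists over all 12 libraries.

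**Figure D5:**
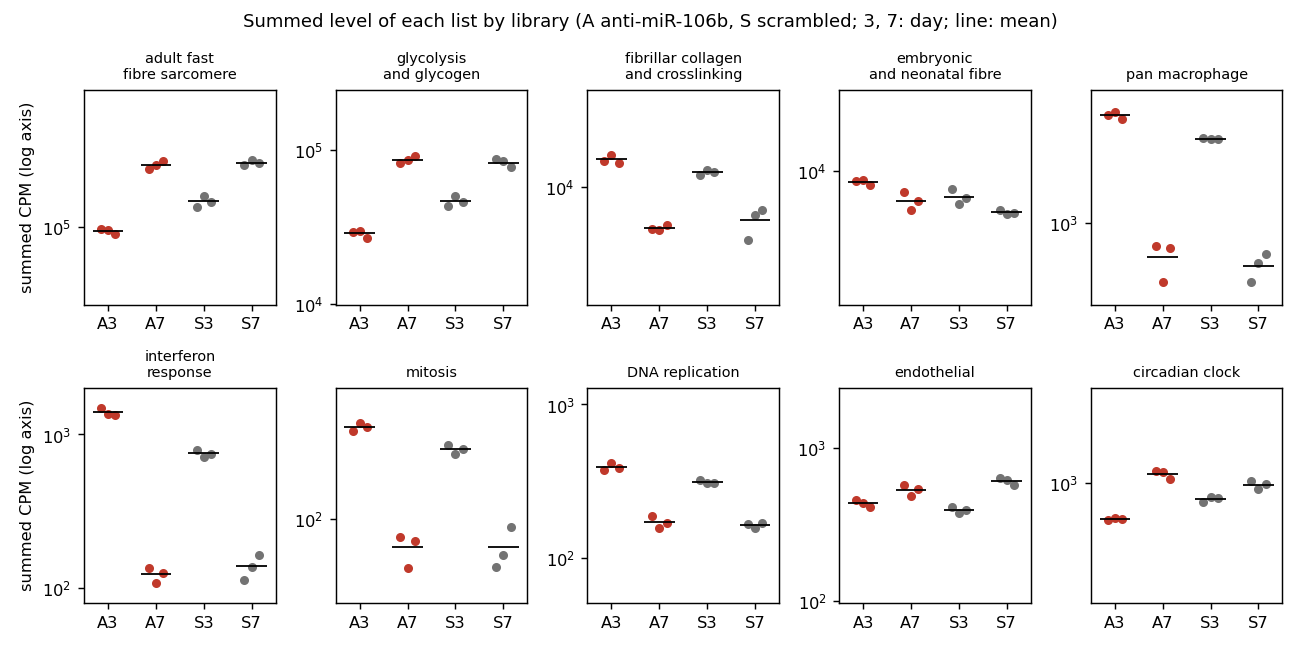
Summed CPM of 10 gene lists (vertical axis, logarithmic, the same fold span in every panel) in each library of the anti-miR-106b (red) and scrambled (grey) groups at day 3 and day 7, with the group mean as a line. The sarcomere list runs from 90081 to 97022 CPM at day 3 to 239700 to 268285 CPM at day 7 with anti-miR-106b, and the interferon list from 1347 to 1479 CPM down to 109 to 135 CPM.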

How the data were processed

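The deposited table holds log2 CPM for 28116 mouse gene symbols and 12 muscle libraries; all 12 columns matched a sample. Per the submitters' processing notes, the authors used the mm10 build with limma 3.34.9 and edgeR 3.20.9, featureCounts for counting and STAR, besides quality control and trimming with FastQC 0.72 and Trim Galore 0.4.3.1; whether strand was used in counting is not given in the sources used here, so overlapping antisense genes cannot be told apart. The log2 values were deposited with scaling factors and a small prior count included, and whole reads could be recovered from them for 100% of values within 0.001 of a read. Libraries held 28857739 to 37415894 reads in the anti-miR-106b groups; intervals between replicates carry both counting and animal variation, and p-values measure the spread among these samples only.

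Genes with at least 1 CPM in at least 3 of the 6 anti-miR-106b libraries were tested with limma 3.58.1 (R 4.3.3), with a prior variance that follows expression level, on group means of all 12 libraries, at a Benjamini-Hochberg adjusted p below 0.05. Contrasts were day 7 minus day 3 with anti-miR-106b, the same with the scrambled control, and their difference. The prior count was 0.20 to 0.33 reads per library, so it damps low-value fold changes little. With 5 CPM added, the neutrophil median went from -2.79 to -0.44 and the T and NK cell median from -2.54 to -0.47. The DNA replication median went from -1.69 to -0.72, while that of the adult fast sarcomere list stayed at 1.57. Genes named were the 12 largest changes in each direction with non-overlapping groups and a mean of at least 3 log2 CPM, the 8 smallest p in each direction for the change and for the difference, a fixed set of 26, and up to 6 per list by p; a few of these are not reported here. The members and the 51 gene lists were chosen with earlier results of these data known. Same-numbered anti-miR-106b libraries did not deviate together (residual correlations -0.0262, -0.0484 and -0.126), so numbers were not taken as pairs. Myosins were compared after division by merged exon length (GENCODE M21), from which gene positions also come. Promoter and microRNA sequences are RefSeq's for GRCm38.p6. The fit was tested on simulated counts in which few genes changed and libraries were scaled by their totals. In these data most genes changed, so that test does not bear on the choice of scaling. Alternatives covered the low-value filter, the prior, the scaling, the variance model, a replicate block and leaving out each library.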

Additional observations from a re-analysis of the deposited data

Results flagged for a closer look

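The change from day 3 to day 7 differed between the arms for 3149 genes, by limma's test of the difference itself. Among the genes with the smallest p, the difference (anti-miR-106b minus scrambled, log2) was 1.26 for Ppp1r3a, 1.01 for Tpbgl, 1.10 for Pla2g4e, 1.04 for Hist1h1c, 0.85 for Sec14l5, 0.92 for Carnmt1, 0.81 for Ano5 and 0.80 for Cacna2d1. On the more negative side it was -0.90 for Aplnr, -1.07 for Uba7, -1.13 for Trp53i11, -1.09 for Pcdh1, -0.88 for Fmnl3, -1.29 for Mov10 and -1.47 for Rps10. Groups of 3 libraries were too small to test for single libraries that stand apart. What leaving out each library changed is given below.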

How the results depend on the processing

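With anti-miR-106b, the count of genes that passed stayed within 1.5 times of 10886 under every alternative run, from 8893 with a filter of 5 CPM, which tests fewer genes, to 12923 with no filter. Scaling to total reads changed its split to 2145 higher and 9443 lower. The difference between the arms was less stable: 5359 genes with library weights (2800 more positive, 2559 more negative), 4385 by total reads (876 and 3509), and 3909 with 5 CPM added (1855 and 2054). With the replicate block the change gave 10611 genes and the difference 2176 (1342 and 834). Leaving out 1 library at a time gave 2088 (without scrambled day 3 replicate 2) to 4574 genes (without scrambled day 7 replicate 1) for the difference, with 796 to 2105 more negative. Signs turned for Myh1 (-0.33), Bin1 (-0.39) and Myh2 (-0.25) by quantiles, where Pcdh1 was at 0.067, Lyve1 at 0.038 and Rfc4 at 0.40, and by total reads for Myh2 (-0.37), Bin1 (-0.49), Jam2 (-0.22), Xirp1 (-0.027), Nos2 (-0.066) and Ltbp4 (-0.011). With the turned sign, Myh1, Bin1 and Rfc4 passed by quantiles (adjusted p = 0.0082, 0.00035 and 0.017 in limma). Bin1 also passed by total reads, and the others did not pass. Rfc4, which did not pass as deposited, was at 0.0068 by median-of-ratios and between -0.11 and 0.085 with a library left out. The causes were not tested. Depth limited genes near 1 CPM, which is 28.1 to 46.9 reads.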

Other observations

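Several gene groups not described above were mixed between day 3 and day 7 with anti-miR-106b as deposited. The single genes named here were chosen after their values were seen. Of 17 tested complement genes (18 listed), 12 were lower, 2 higher and 3 did not pass, and 1 of the 17 reached 1 CPM on 1 day only. The anaphylatoxin receptor C3ar1 fell by 3.50, while Cfd, a serine protease made by fat cells, rose by 1.16 and Cd55, which shields cells from complement, by 1.45. Of 21 metalloproteinase and inhibitor genes (1 on 1 day only), 16 were lower, 4 higher and 1 did not pass: Adam12, a protease of regenerating muscle and activated stroma, fell by 2.67, and the aggrecanase Adamts5 rose by 1.31. Of 17 tested iron and haem genes (18 listed), 8 were lower, 3 higher and 6 did not pass. By total reads 14 were lower and 1 higher. Hmox1, which breaks down haem, fell by 2.34 and Tfrc, the receptor for iron uptake, rose by 1.59.

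Genes of muscle wasting were split as well, with 8 of 18 higher, 5 lower and 5 not passing. By total reads 5 were higher and 11 lower. Fbxo40, a muscle ubiquitin ligase subunit, rose by 1.68 and Mstn, which restrains muscle growth, by 1.35, whereas Runx1, a transcription factor of denervated and regenerating muscle, fell by 2.18. The membrane repair list had 3 of 14 higher, 5 lower and 6 not passing. By total reads 1 was higher and 11 lower (median -0.63), and by quantiles 2 and 10 (median -0.28). The basement membrane list (1 on 1 day only) had 4 of 17 higher, 8 lower and 5 not passing. By total reads 1 of that list was higher and 14 lower. Of 20 tested genes of TGF-beta and BMP signalling (21 listed), 8 were higher and 6 lower, with a median of -0.09. Tendon genes had 5 of 14 higher and 3 lower, but 0 and 8 by total reads, and pericyte and smooth muscle genes 6 of 14 higher and 6 lower. By total reads the medians were -0.72 for TGF-beta and BMP, -0.45 for tendon and -0.46 for pericyte genes. Of 18 ribosome biogenesis genes, 3 were higher and 11 lower. Of 12 listed B cell genes 3 were tested, all lower, 1 of which reached 1 CPM on 1 day only and so had to differ; 1 of the 2 tested keratinocyte genes (10 listed) was higher.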
